A study of Drosophila melanogaster with 36 samples.

Results

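The 54 internal entries of LTR retrotransposons are the rows of a transposon table whose names end in _I, out of 186 transposon classes in all. They were chosen by name alone. No name held _I_ at another place. For 51 of the 54 the table also had an LTR row of the same element name, with Copia2_I matched to Copia2_LTR_DM. HMSBEAGLE_I, TOM_I and Ulysses_I had none. ROVER-I_DM, TV1I and DM412 are written differently and were not members.

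LTR retrotransposons are mobile elements that copy themselves through an RNA intermediate. A pair of long terminal repeats, the LTRs, flanks an internal stretch that codes for the Gag and Pol proteins and, in the errantiviruses of the Gypsy group, for an envelope protein. RNA polymerase II starts from a promoter in the upstream LTR, so the 5′ end of a full transcript is usually expected in the LTR, and repeat libraries list the LTR and the internal stretch as separate entries. In the fly germ line and its supporting cells, small RNAs of the piRNA pathway hold these elements down.

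RAMPAGE, which reads the 5′ ends of capped RNA, was applied to pools of whole animals of the y; cn bw sp strain, with 1 library for each of 36 stages. Every library came from untreated animals of that strain. There were 24 hourly embryo windows from 0 to 24 h after egg laying. A further 5 libraries came from larvae, namely L1, L2 and wandering L3 with a dark, light or clear gut, and 5 from pupae 1 to 5 d after the white prepupa. Adult males and adult females, kept 5 d after eclosion, gave 1 library each. Embryos, larvae with pupae, and adults were prepared as 3 multiplexed pools, and the adults also differed in RNA extraction reagent and sequencer, so values of the 3 pools are set side by side with no test. The 3 L3 columns of the transposon table share a heading, and they are called L3 columns 1 to 3 without a gut stage. With 1 library per stage, 4 neighbouring hours served as the libraries of a group, and the p-values below measure the spread between such hours.

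The deposited values are RPM, here reads per 1000000 transposon reads, so each is a share and a rise in 1 entry lowers all others. Estimated transposon reads ranged from 3457 in L3 column 1 to 249017 in the pupa at 5 d, and 1 read was worth 289 and 4.02 RPM there. Of 54 internal entries, 16 were above 0 in all 36 libraries and 8 were above the value of 3 reads in all 36, while 9 were above it in fewer than 18. In the gene table at most 3 of 6089 minus-strand genes were above 0 in any pupal library, against at least 2595 in each larval library, and whether pupal transposon values also come from 1 strand was not tested. In whole animals, fewer expressing cells and less RNA per cell cannot be told apart.

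MDG1_I, the internal entry of the Gypsy-group element mdg1, held more signal than any other class in young embryos. Its share of transposon signal was 68.2%, 62.99%, 48.7% and 52.5% in the 4 hourly libraries of the first 4 h. From 4 to 8 h it ranged from 42.8% to 64.9%, from 12 to 16 h from 10.7% to 22.8%, and from 20 to 24 h from 9.41% to 13.1%. It lay between 3.85% and 16.2% in larvae and between 1.61% and 12.3% in pupae, and was 2.07% in adult males and 7.26% in adult females. Its share from 8 to 12 h, 20.1% to 35.6%, lay below every library of the first 8 h, and the 12 to 16 h libraries did not overlap with those of 4 to 8 h.

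**Figure D1:**
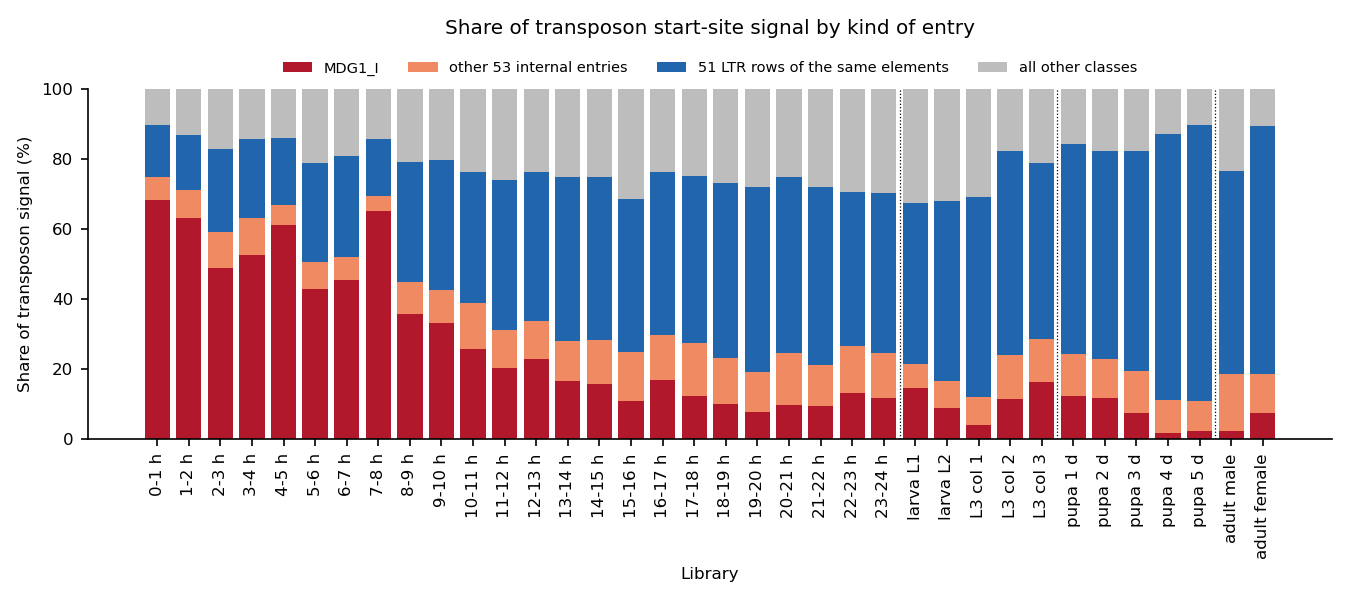
Share of transposon signal (%, vertical axis) in each of 36 libraries (horizontal axis; dotted lines part the embryos, larvae, pupae and adults), stacked as MDG1_I, the other 53 internal entries, the 51 LTR rows of the same elements and all other classes. MDG1_I takes 68.2% of the bar at 0 to 1 h and 9.41% to 13.1% of the bars from 20 to 24 h, while the other internal entries stay between 4.46% and 16.4%.

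The other 53 internal entries together held 6.39% to 10.4% of all transposon signal at 0 to 4 h and 11.6% to 14.9% at 20 to 24 h. With MDG1_I taken out of the total, this order turned around. They made up 20.1% to 21.9% of the remaining signal in the first 4 h, 12.1% to 14.7% from 4 to 8 h and 12.8% to 16.5% in the last 4 h. On that scale the first 4 h lay above every other embryo library. The corresponding shares were 8.05% to 14.8% in larvae, 8.95% to 13.6% in pupae, 16.7% in adult males and 12.2% in adult females. For the 51 LTR rows, the share of the signal left without MDG1_I was 43.03% to 47.6% at 0 to 4 h, 50.3% to 56.1% at 20 to 24 h, 67% to 80% in pupae and 75.9% in adult females. The counts of calls below are therefore given with MDG1_I kept and with it taken out and each library rescaled to the rest. Values in RPM are those with MDG1_I kept.

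Signal was spread unevenly over the entries. Of the 54, 22 had a mean of 1000 RPM or more over the 36 libraries and 32 a lower one. After MDG1_I, with a mean of 224499 RPM, came ROO_I of the BEL group with 21264, MDG3_I with 9596, Copia_I, of the founding element of the Copia group, with 9333, and HMSBEAGLE_I with 8549. These are sums of 5′ ends over entries of unequal length that the files do not give, so their order is not an order of levels per length. OSVALDO_I, Ulysses_I, TOM_I and NINJA_I carry names of elements described in other Drosophila species. Their means were 42.6, 6.73, 88.6 and 142 RPM, and Ulysses_I was above the value of 3 reads in 1 library only.

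The internal entry and the LTR row of an element were compared in each library as the log2 ratio of LTR to internal signal, with 10 RPM added to both. The median ratio over 36 libraries was above 0 for 24 of 51 elements, below 0 for 20 and 0 for 7. It passed 2-fold toward the LTR for 21 and toward the internal entry for 15. The 7 with a median of 0 included OSVALDO and Invader5, low in both rows, and Gypsy5, whose LTR row was higher in 16 libraries and lower in 17. Counted over libraries where either row was above 3 reads, the split was 27 and 24 with no ties. Among the 21 pairs whose internal entry averaged 1000 RPM or more, the LTR row was higher in 12 and the internal entry in 9. Leaving out the MDG1 pair changed 20 to 19.

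The LTR row was higher in all 36 libraries for 7 elements, BLASTOPIA, Copia, DIVER, DM297, Gypsy12, MAX and NOMAD. Gypsy12 stood at the top, with a median log2 ratio of 6.76 and a range from 3.38 to 12.02. Gypsy12_I ranged from 0 to 949 RPM with a median of 143, and Gypsy12_LTR from 2952 to 41655 with a median of 14352, so the 2 rows did not overlap. NOMAD, an errantivirus, followed with 4.37 (2.00 to 8.53), and DM297, another errantivirus, with 4.13 (2.24 to 6.53). NOMAD_I had a median of 566 RPM and NOMAD_LTR one of 12188. DM297_I had a median of 2103 RPM and DM297_LTR one of 36697. Both rows of DM297 were highest in the pupa at 4 d, at 16018 and 596065 RPM.

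The internal entry was higher in all 36 libraries for MDG1 and BATUMI. MDG1 had the lowest median log2 ratio, -6.46, with a range from -11.87 to -1.78. MDG1_LTR never passed 5289 RPM, whereas MDG1_I never fell under 15933. The ratio had a median of -9.42 in the first 4 h and -5.25 in the last 4 h of the embryo, and was -2.15 in adult males. Gypsy4 and ACCORD2 came next with -4.90 and -4.31. Their LTR rows averaged 36.7 and 19.9 RPM over the 36 libraries, against 1121 and 584 for the internal entries, and the LTR was higher in no library for either. BATUMI, of the BEL group, had a median of -3.77 with a range from -8.99 to -0.61.

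**Figure D2:**
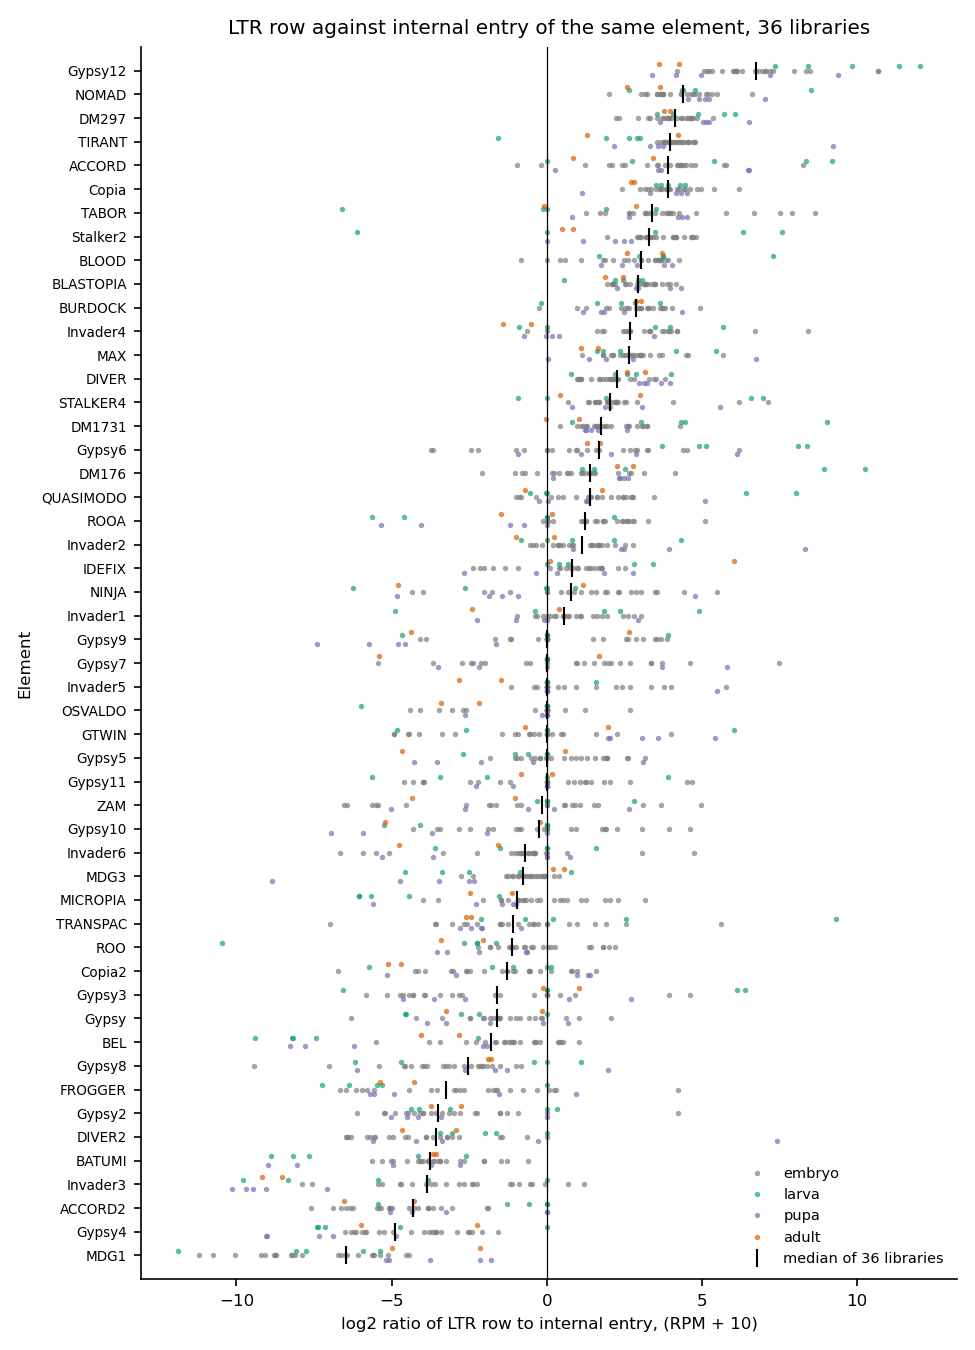
Log2 ratio of the LTR row to the internal entry of the same element after adding 10 RPM (horizontal axis) for 51 elements (vertical axis, ordered by the median), with 1 point per library coloured by embryo, larva, pupa or adult, and a black mark at the median of 36 libraries. Medians run from -6.46 for MDG1 to 6.76 for Gypsy12, and the points of most elements fall on both sides of 0.

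By group, the LTR row had the higher median in 6 of 9 pairs of errantiviruses, 7 of 11 other well-known Gypsy elements, 4 of 8 BEL elements and 2 of 4 Copia elements. With MDG1_I kept, both rows of an element seldom peaked in the same embryo hour. They did so for 3 elements, ACCORD, DIVER and MDG3, and within 2 h of each other for 19 of 51. These counts were not made without MDG1_I, and the elements change there. DIVER_I was then highest at 4 to 5 h and DIVER_LTR at 0 to 1 h, while both TIRANT rows were highest at 0 to 1 h. ROO shows a course that differs between its rows. ROO_LTR stood at 9732 RPM in the first hour, 80493 from 6 to 7 h and 9132 in the last hour, while ROO_I was highest, at 42584, at 15 to 16 h. Without MDG1_I, ROO_LTR was still highest at 6 to 7 h. ROO_I was then highest at 1 to 2 h, at 63624 RPM, against 49088 at 15 to 16 h. The median log2 ratio of ROO was 1.91 at 4 to 8 h, with a higher LTR row in all 4 of these libraries, and -1.70 at 20 to 24 h. BEL_LTR was at 0 in 7 libraries, all larval or pupal, where BEL_I ranged from 728 to 6698 RPM.

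The first test asked which entries change between the first 4 h, which include the earliest hours when most RNA is maternal, and 4 to 8 h. HMSBEAGLE_I, a Gypsy-group entry, fell from 18620, 18050, 16253 and 10351 RPM in the 4 earlier libraries to 4341, 5738, 4993 and 5198, with no overlap. Its log2 change was -1.61 ± 0.28 (SE, limma adjusted p = 0.0003), and without MDG1_I it was -1.76 (limma adjusted p = 0.000124). BEL_I was the only internal entry called higher, from 303, 427, 638 and 915 RPM to 1096, 1833, 1241 and 1830, again with no overlap. Its log2 change was 1.46 ± 0.41 (limma adjusted p = 0.0113), and 1.32 without MDG1_I.

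Of all classes tested, 19.6% were called at an adjusted p under 0.05 and at least 2-fold. For the internal entries this was 7 of 54, with 1 higher (5.43% of all classes) and 6 lower (14.1% of all classes), and a median log2 change of -0.44 against -0.29 over all classes. Beside HMSBEAGLE_I, the lower entries were TIRANT_I (-1.31 ± 0.38), Gypsy8_I (-1.25 ± 0.42), MICROPIA_I (-1.72 ± 0.61), Invader6_I (-2.76 ± 0.82) and Gypsy9_I (-2.52 ± 0.84). Tirant is an errantivirus and micropia a Gypsy-group element. TIRANT_I went from 2392 to 3691 RPM at 0 to 4 h to 732 to 1864 at 4 to 8 h without overlap. Gypsy9_I was at 160 RPM or less in all 8 libraries and at 0 in 3 of the later 4. Without MDG1_I, 8 of 53 were called, the same 7 and BLOOD_I (-1.52), against 22.4% of all classes. This was 1 higher and 7 lower, against 5.46% and 16.9% of all classes.

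The call of TIRANT_I was lost without the 7 to 8 h library (-1.06, limma adjusted p = 0.0608), that of Invader6_I without the 4 to 5 h (0.05941) or the 7 to 8 h library (0.07904), and that of MICROPIA_I without the 0 to 1, 1 to 2, 2 to 3 or 7 to 8 h library (limma adjusted p from 0.08092 to 0.2886). Gypsy9_I lost its call in 5 of 8 such fits, without the 0 to 1, 1 to 2, 4 to 5, 5 to 6 or 7 to 8 h library (0.05181 to 0.09899). HMSBEAGLE_I and BEL_I kept theirs in all 8. In a fit of only the 8 libraries compared, HMSBEAGLE_I alone stayed called, and BEL_I had an adjusted p of 0.07927 by limma (0.05453 over libraries of at least 15000 reads). Calls were also gained. IDEFIX_I (0.99 in the fit of all libraries) was called higher without the 2 to 3, 3 to 4 or 7 to 8 h library (1.21 to 1.46), and MDG3_I (0.92) without the 2 to 3 or 3 to 4 h library (1.25 to 1.26). Copia_I was called lower without the 0 to 1 h library (-1.42), and Ulysses_I higher without the 3 to 4 or 7 to 8 h library (2.03 and 2.30).

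The largest share of calls came between 4 to 8 h and 12 to 16 h, the time over which organs form. BURDOCK_I, of a Gypsy-group element, stood at 110, 183, 203 and 146 RPM at 4 to 8 h and at 2608, 2046, 2854 and 2441 at 12 to 16 h. Its log2 change was 3.90 ± 0.49 (limma adjusted p = 9.124e-08). Copia_I went from 365, 978, 684 and 146 RPM to 3980, 5203, 5441 and 6376, a log2 change of 3.53 ± 0.50 (limma adjusted p = 1.063e-06). Neither pair of groups overlapped. Copia_LTR rose as well, by 2.22 on the log2 scale (1.36 without MDG1_I), and BURDOCK_LTR by 5.80 (4.98 without MDG1_I).

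Invader6_I rose by 4.19 ± 0.82 on the log2 scale, Gypsy5_I by 3.10 ± 0.67, Invader2_I by 2.22 ± 0.42 and BATUMI_I by 2.05 ± 0.34 (limma adjusted p from 1.282e-05 to 0.0003833). BATUMI_I ranged from 1043 to 2506 RPM at 4 to 8 h and from 4516 to 9305 at 12 to 16 h. BATUMI_LTR, from 220 to 611 and from 137 to 568.2 RPM, overlapped between these periods. MDG1_I fell by 1.75 ± 0.33 (limma adjusted p = 7.444e-05) from 607247, 428347, 453981 and 645142 RPM to 226736, 163022, 155417 and 104261.

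With MDG1_I kept, 32.6% of all classes were called, 27.2% higher and 5.43% lower. The internal entries gave 14 of 54, 12 higher and 2 lower, and their median log2 change of 0.91 equalled that over all classes. Without MDG1_I the median over all classes was 0.32 and that of the internal entries 0.09. On that scale 24% of all classes were called, 15.8% higher and 8.2% lower, and 10 of 53 internal entries, 6 higher and 4 lower. The 6 were BATUMI_I, BURDOCK_I, Copia_I, Gypsy5_I, Invader2_I and Invader6_I, with log2 changes of 1.20, 3.09, 2.70, 2.30, 1.38 and 4.07. These 6 entries were called in both forms of the table. Median-of-ratios scaling put the median of all classes at 0.02 and gave 23 higher and 16 lower classes, 5 and 5 of them internal entries. Of the 6 above, all but BATUMI_I (0.89) were called there as well.

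ROO_I, TIRANT_I, DM176_I, DM297_I, MICROPIA_I and Stalker2_I were called higher only with MDG1_I kept. ROO_I changed by 1.02 with MDG1_I, by 0.17 without it and by -0.14 with median-of-ratios scaling, so its direction turned. DM176_I, of an errantivirus, changed by 1.18 and 0.32, DM297_I by 1.24 and 0.39, and MICROPIA_I by 1.70 and 0.88. TIRANT_I changed by 0.98 without MDG1_I (limma adjusted p = 0.04377), so it missed only the 2-fold limit. With median-of-ratios scaling TIRANT_I changed by 0.67 (limma adjusted p = 0.1855). Gypsy7_I, Gypsy8_I and ZAM_I, the last an errantivirus, were called lower only without MDG1_I, by -3.28, -1.06 and -3.32. Ulysses_I was called lower in both forms, from 55, 61, 51 and 0 RPM to 0 in all 4 libraries, and only the 6 to 7 h value was above that of 3 reads.

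**Figure D3:**
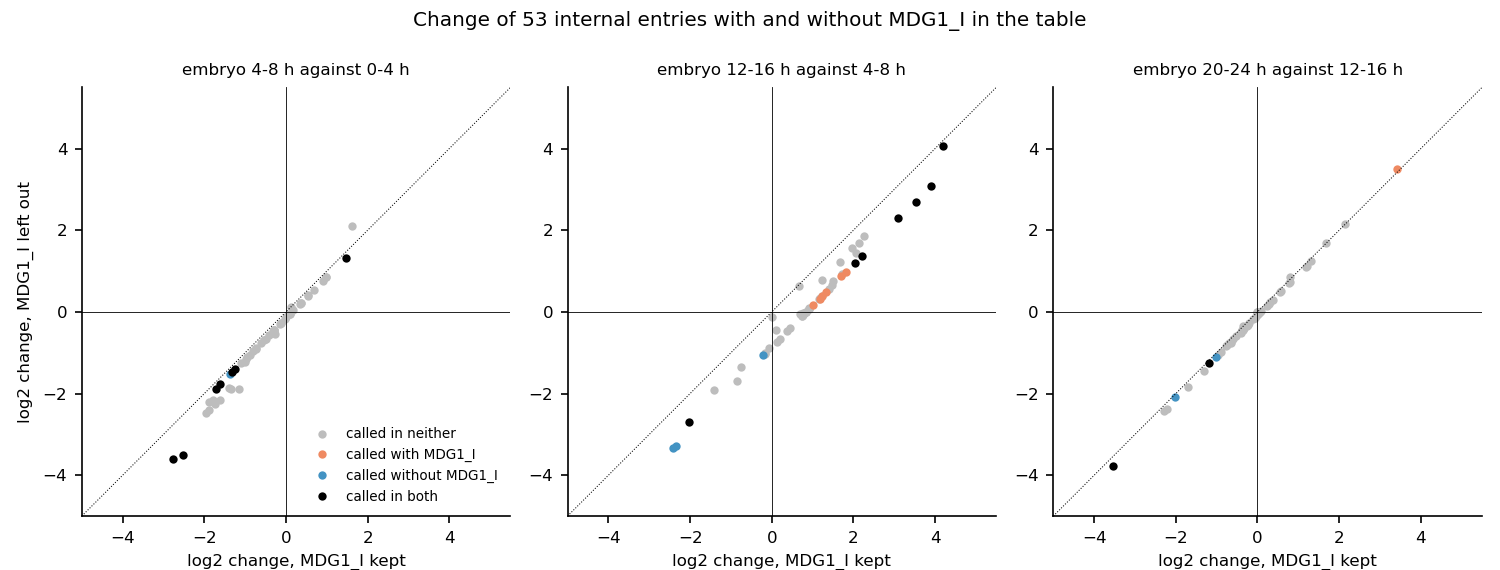
Log2 change of 53 internal entries with MDG1_I kept in the table (horizontal axis) and with it left out and the libraries rescaled (vertical axis), in 3 embryo comparisons, coloured by whether the entry was called in either form. In the comparison of 12 to 16 h with 4 to 8 h the points lie below the dotted line of equality, and 6 rising entries are called in both forms.

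Leaving out single libraries moved the internal count between 11 and 16. ROO_I dropped under 2-fold without the 4 to 5, 7 to 8, 14 to 15 or 15 to 16 h library (0.79 to 0.97), DM176_I lost its call without the 6 to 7, 7 to 8, 13 to 14 or 15 to 16 h library (limma adjusted p from 0.0608 to 0.109), and MICROPIA_I without the 7 to 8, 12 to 13, 13 to 14 or 15 to 16 h library (0.05026 to 0.2093). Ulysses_I lost it without the 4 to 5, 5 to 6, 6 to 7 or 14 to 15 h library (0.05085 to 0.07614). Calls were gained by Invader3_I without the 6 to 7 h library (1.06), by ACCORD2_I without the 5 to 6 or 12 to 13 h library (1.81 and 1.74), and by NOMAD_I without the 12 to 13 or 13 to 14 h library (1.61 and 1.67).

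**Figure D4:**
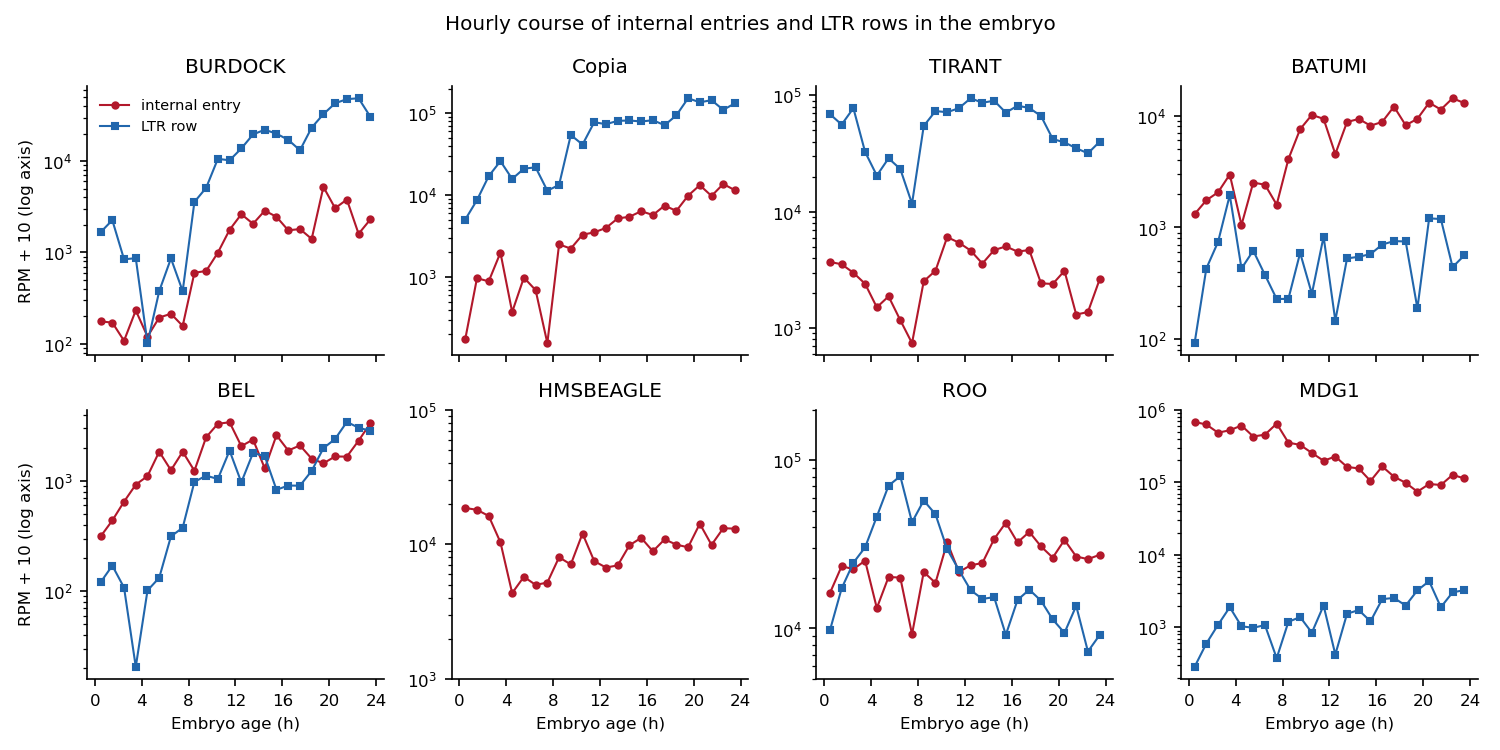
Signal in RPM after adding 10 (vertical log axis, own range in each panel) by embryo age in hours (horizontal axis) for 8 elements, with circles for the internal entry and squares for the LTR row (HMSBEAGLE has no LTR row). With MDG1_I kept, as drawn, BURDOCK, Copia and BATUMI internal entries are low until 8 h and high after it. HMSBEAGLE_I is lowest from 4 to 8 h, and ROO_LTR is highest at 6 to 7 h while ROO_I is highest at 15 to 16 h. Without MDG1_I, HMSBEAGLE_I is lowest at 13 to 14 h (8478 RPM) and ROO_I is highest at 1 to 2 h. On that scale BATUMI_I is at 6263 RPM at 3 to 4 h and 5897 at 12 to 13 h. Copia_I is at 4188 RPM at 3 to 4 h and 3926 at 8 to 9 h there.

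Late embryos differed less from those of 12 to 16 h. At 20 to 24 h, 8.7% of all classes were called, 2.17% higher and 6.52% lower, and 3 of 54 internal entries, 1 higher and 2 lower. TIRANT_I fell from 4626, 3573, 4672 and 5018 RPM to 3094, 1297, 1363 and 2613, with no overlap and a log2 change of -1.19 ± 0.38 (limma adjusted p = 0.0446). TIRANT_LTR fell over the same interval by 1.22 on the log2 scale, and by 1.30 without MDG1_I. TOM_I went from 411.7, 126, 107 and 189 RPM to 61.4 in 1 library and 0 in the other 3 (-3.55 ± 1.00), and of these values only that of 13 to 14 h was above 3 reads. Gypsy11_I rose from 0, 50.3, 0 and 189 RPM to 552, 354, 144 and 484, with overlap.

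Without MDG1_I, 11.5% of all classes were called, 2.19% higher and 9.29% lower. The 4 of 53 internal entries called were all lower, namely TIRANT_I (-1.26), TOM_I (-3.78), Gypsy5_I (-2.09) and Invader3_I (-1.09). None of the 3 calls made with MDG1_I kept held throughout. The call of TIRANT_I was lost without any single library other than that of 20 to 21 h (limma adjusted p from 0.05088 to 0.1529), that of Gypsy11_I without any of 6 of the 8 (0.0547 to 0.1798, kept without the 15 to 16 or 22 to 23 h library), and that of TOM_I without the 12 to 13, 21 to 22, 22 to 23 or 23 to 24 h library (0.05722 to 0.06527). The internal count itself was 0 without the 12 to 13, 21 to 22 or 23 to 24 h library and 1 without the 13 to 14, 14 to 15 or 22 to 23 h library. Gypsy5_I, not called with all libraries, was called lower without that of 20 to 21 h (-2.52).

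Over the whole 24 h, a spline of the hour was called for 57.6% of all classes (limma F test, adjusted p under 0.05). Internal entries gave 28 of 54, and the LTR rows of the same elements 41 of 51. Without MDG1_I the background was 50.8%, and the counts were 25 of 53 and 37 of 51. Whether internal entries and LTR rows differ in this share was not tested. The hour of the highest value moved with MDG1_I. Of the internal entries with a course, 5 of 28 were highest in a library of 0 to 4 h with MDG1_I kept, and 12 of 25 with it left out. Their counts for 8 to 12 h were 7 and 3, and for 16 to 20 h 6 and 2.

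Pupae and larvae, prepared in the same pool, could be compared with 5 libraries each. None of 51 internal entries tested was called by limma, where 1.33% of all 150 classes were, and 6 had an unadjusted p under 0.05 (5 of 50 without MDG1_I, where none was called against 1.34% of classes). A fit without the mean-dependent trend called 1 internal entry, Gypsy9_I, as did the fit without L3 column 3. All 6 had the higher mean in pupae. Gypsy9_I was 0 in 4 larval libraries and 242 RPM in L3 column 3, and 1685, 709, 517, 1126 and 229 RPM in pupae of 1 to 5 d, a log2 change of 5.21 ± 1.33 (limma adjusted p = 0.0660). Invader4_I ranged from 0 to 323 RPM in larvae and from 831 to 3123 in pupae, with no overlap, and gave 4.30 ± 1.32 (limma adjusted p = 0.1202). MDG3_I was high in both, between 5120 and 24654 RPM in larvae and between 1792 and 29805 in pupae. DM297_LTR, at 596065 RPM in the pupa at 4 d, was kept with and without MDG1_I, and it lowers all other shares of that library.

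Adult males and females gave 1 library each, so their values have no replicate check, and the intervals below are exact 95% binomial intervals on estimated reads that cover counting error only. IDEFIX_I, of an errantivirus, was at 13471 RPM (12810 to 14157) in males and 118 (66.9 to 205) in females. TIRANT_I showed the opposite order, with 2061 RPM (1805 to 2340) in males and 20345 (19531 to 21176) in females. Gypsy9_I was at 1096 RPM in males and 0 in females, where the exact interval reaches up to 32.3 RPM. The order at TIRANT was shared by its LTR row, with 5118 and 383938 RPM, whereas IDEFIX_LTR was at 14584 and 8439.

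At least 2-fold higher values in males were found for 37.3% of all 150 classes with a ratio and for 19 of 49 internal entries. At least 2-fold higher values in females were found for 15.3% of the classes and for 7 of 49 internal entries. Without MDG1_I these were 37.6% and 14.8% of 149 classes and 19 and 6 of 48 internal entries. The counts of internal entries lie near these backgrounds. TIRANT_LTR, at 383938 RPM in females and 5118 in males, was kept in both forms, so every other share in females is lower by its signal. Counts without TIRANT_LTR were not made. Among the entries higher in males, Gypsy4_I had 4535 and 579 RPM, NOMAD_I 4446 and 831, DM297_I 8278 and 3498 and BEL_I 4882 and 1749. MDG1_I had 19423 and 72055 RPM, and BATUMI_I 2804 and 5721, with more in females. Copia_I, at 38103 and 21730, was the internal entry with the most signal in males, and MDG1_I that in females.

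**Figure D5:**
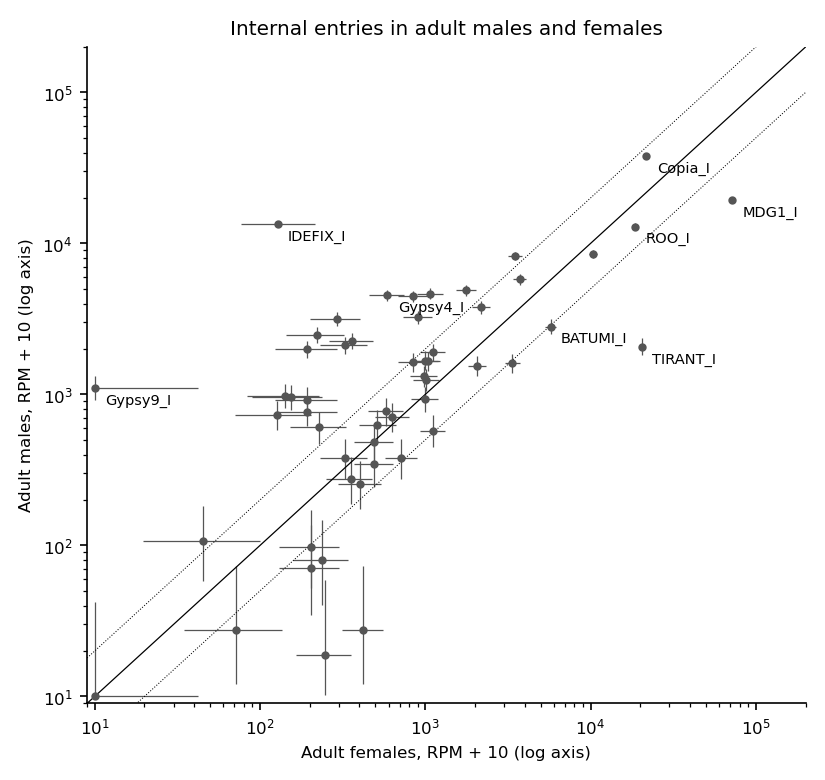
Internal entries in adult males (vertical axis) and adult females (horizontal axis), both in RPM after adding 10 on log axes, 1 library each, with exact 95% binomial intervals as bars, a solid line of equality and dotted lines at 2-fold. IDEFIX_I lies above the lines at 13471 and 118 RPM, TIRANT_I below them at 2061 and 20345 RPM.

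Genes of the piRNA pathway were summed in the gene table beside these courses, on its own scale of reads per 1000000 genic reads. Of 16 listed genes, 11 were matched, among them piwi, aub and AGO3, which code for Argonaute proteins that bind piRNAs. Their sum was 1012 to 2405 RPM at 0 to 4 h, 289 to 439 at 4 to 8 h and 221 to 348 at 20 to 24 h. It was 155 in adult males and 573 in adult females. AGO3 alone gave 1003 of 2405 RPM at 0 to 1 h, 961 of 1158 at 3 to 4 h and 230 of 289 at 7 to 8 h. At 4 to 8 h piwi ranged from 0 to 2.86 RPM and aub from 1.43 to 3.94. The embryo sum is thus mostly that of AGO3 and, in the first hours, of armi (821 RPM at 0 to 1 h). In adults AGO3 gave 21.4 RPM in males and 70.1 in females. The sum was thus lower from 4 to 8 h than in the first 4 h without overlap, while the shares of MDG1_I in these periods overlapped. No relation between them was tested.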

How the data were processed

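The authors deposited RPM values for 186 transposon classes and 36 libraries, whose columns sum to 940338 to 1001732. The submitters' processing notes name dm3, STAR and Cufflinks, without roles or versions. The treatment of reads that match more than 1 copy was not given in the sources used here, and it bears on every entry, since copies and LTRs are near-identical. Sequences of the elements were not analysed here.

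The value of 1 read was estimated per library from the step between values. Between 54.5% and 85.7% of values were whole multiples of it (tolerance 0.002). Values were tested as log2(RPM + 10) with limma 3.58.1 in R 4.3.3, for classes of at least 20 RPM in at least 3 fitted libraries, so a fold change of a low entry is understated. The 3 embryo comparisons shared 1 fit of 24 libraries, and pupae and larvae had their own. P-values were adjusted over all classes by Benjamini-Hochberg. The course was tested by F over a natural spline (5 degrees of freedom). Tested on simulated data, the embryo 12 to 16 h comparison recovered 17 of 20 classes changed 4-fold. The changed classes were drawn from those of higher mean only, with the same added spread for all classes and as many rises as falls. Simulated libraries were not rescaled to a fixed total. The recovery therefore does not cover low entries, entries of larger spread or the shift of shares that goes with MDG1_I.

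Named entries are the 10 with the highest mean, the 5 called entries with the largest rise and the 5 with the largest fall per comparison, the 3 highest and 3 lowest pairs, and MDG1_I. Others named are exceptions of counts or were chosen after their values were seen. The members, families and lists were chosen with earlier results of these data known. Alternatives were the added constant, the filter, the scaling, leaving out R1 and R2 or MDG1_I, the trend, the libraries fitted and each library left out.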

Additional observations from a re-analysis of the deposited data

Results flagged for a closer look

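In 21 of 193 groups of libraries of the named internal entries, the highest or lowest library stood apart from the others of its group by Dixon's test, which chance flags in about 1 of 20 groups. The libraries of a group are successive stages, and many flags rest on a few reads.

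L3 column 3 stood above the other 4 larval libraries for 5 entries. IDEFIX_I was at 7046 RPM there against 0 to 1706, Gypsy5_I at 2401 against 0 to 519.9, Gypsy9_I at 242 against 0, ACCORD2_I at 424 against 0 to 14.1, and NOMAD_I at 3105 against 9.37 to 321. L3 column 2 stood above the rest for DM297_I (3263 against 253 to 1002), Gypsy11_I (481 against 0 to 98.4) and Gypsy12_I (94.4 against 0 to 22.6). In L3 column 1, the shallowest library, TIRANT_I was at 6075 RPM against 711 to 946.

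Among pupae, ROO_I was at 16965 RPM at 3 d against 10293 to 11664, TOM_I at 579 at 1 d against 0 to 57.5, and Gypsy11_I at 38.3 at 3 d against 0 to 11.1. In embryos, BURDOCK_I was at 5202 RPM at 19 to 20 h against 1394 to 1790, ACCORD2_I at 1795 at 11 to 12 h against 393 to 596, and MICROPIA_I at 794 at 3 to 4 h against 1680 to 1713.

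In the remaining 6 groups 1 library was above 0 and the other 3 were at 0, each value being 3 reads or fewer. These were Gypsy9_I at 6 to 7 h (12.7 RPM) and 12 to 13 h (137.2), Ulysses_I at 3 to 4 h (21.1), 8 to 9 h (13.8) and 16 to 17 h (40.8), and TOM_I at 20 to 21 h (61.4).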

How the results depend on the processing

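Depth limits the low entries, since 1 read is worth up to 289 RPM and estimated reads range from 3457 to 249017. No count test was run, because too few values were whole reads. Of the single hours, only that of 3 to 4 h was left out of the course, and that result is not given here. No paired analysis was possible because replicates are successive stages and their numbers were given in time order. Of the alternatives recomputed for the named entries, 94 lost a call, 37 gained one and 1 called change turned. The other 1828 were labelled as the same. The called change that turned was ROO_I at 12 to 16 h against 4 to 8 h (-0.143 with median-of-ratios scaling). Changes of direction in entries that were not called are not counted as turned. Between 4 to 8 h and 12 to 16 h, the log2 change was positive for 43 of 54 internal entries with MDG1_I kept and for 29 of 53 without it. For 4 to 8 h against 0 to 4 h, fitting only the 8 libraries compared gave 16 classes and 1 internal entry called, and libraries of at least 15000 reads (an alternative chosen after seeing the data) gave 2 internal entries. For 12 to 16 h against 4 to 8 h, median-of-ratios scaling gave 39 classes (23 higher, 16 lower), and leaving out MDG1_I with a constant of 100 RPM (also chosen after seeing the data) gave 9 internal entries. For 20 to 24 h against 12 to 16 h, a constant of 1 RPM gave 8 classes and 0 internal entries, and the 8 libraries alone 30 and 7. Leaving out MDG1_I with a constant of 100 RPM gave 5 internal entries. Of the 20 to 24 h libraries only that of 20 to 21 h had at least 15000 estimated reads, so no count is given for the deeper libraries there. For pupae against larvae, a constant of 100 RPM, median-of-ratios scaling, leaving out R1 and R2, and the deeper libraries each gave 1 class, and a fit without the trend 1 internal entry. With each library left out in turn, classes and internal entries called ranged from 24 to 44 and 4 to 10 (4 to 8 h), 48 to 60 and 11 to 16 (12 to 16 h), 3 to 15 and 0 to 3 (20 to 24 h) and 0 to 5 and 0 to 1 (pupae). The internal count of 4 came without the 7 to 8 h library, and, for 20 to 24 h, 3 classes without that of 12 to 13 h and 10 without that of 23 to 24 h. For pupae, 0 classes came without the pupa of 3 d, 4 without that of 1 d, 5 without L3 column 3, and 1 without L1, L2, L3 column 1 or the pupa of 5 d. The 24 pairs with a higher LTR row stayed 24 without the MDG1 pair and with constants of 1 or 100 RPM, and were 27 over libraries with either row above 3 reads.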
